A study of Mus musculus with 9 samples.

Results

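The genes described here encode 10 transporters that move bile acids, phospholipid, sterols and organic anions out of hepatocytes, chosen by name from a table of 21470 genes. Of these, 7 were grouped as canalicular (Abcb11, Abcc2, Abcb4, Abcg5, Abcg8, Atp8b1 and Abcb1a) and 3 as basolateral (Abcc3, Abcc4 and Slc51b), by the membrane in which the protein is known to sit. All 10 were measured, and 9 passed the filter on low values. Abcc4 did not pass it.

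RNA was sequenced from whole mouse liver in 3 groups of 3 libraries: bile duct ligation with ligustilide (BDL+LIG), bile duct ligation alone (BDL) and sham operation (sham). Ligation of the bile duct stops bile flow and is used to provoke cholestatic liver injury and fibrosis. Ligustilide is a plant phthalide, known from Angelica root, and the series asked what it does to gene expression in ligated liver. The design text gives it at 10 mg/kg, but sample titles read 20, and which of these was the dose could not be settled. Livers of both BDL+LIG and BDL had a ligated duct. The sources used here do not give strain, sex, age, time after surgery, or what BDL and sham mice received in place of ligustilide. Whether every library is a separate mouse is likewise not stated, so the p-values reflect library-to-library spread that may be technical.

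Hepatocytes secrete bile across the canalicular membrane into a narrow channel between neighbouring cells, and exchange solutes with blood across the basolateral membrane. ABCB11, the bile salt export pump, drives bile acid secretion, ABCC2 exports conjugated bilirubin and other organic anions, ABCB4 presents phosphatidylcholine to bile, and ABCG5 with ABCG8 secretes sterols. When bile cannot leave, ABCC3, ABCC4 and the OSTα-OSTβ transporter can return bile acids to blood, from where the kidney removes them. Many of these genes are known targets of the bile acid receptor FXR or of the receptors PXR, CAR and LXR and the stress factor NRF2.

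Promoter sequences are shown for the genes whose transcripts moved together, moved apart or moved most. RefSeq windows of build GRCm38.p6 were found for 8 of the 10 genes. The expression table rests on build GRCm39, so the coordinates below apply to the sequences alone. Each line is the coding-strand sequence, 5′ to 3′. The bases just before the start site are shown for Abcb11 (chr2:69342617-69342736, minus strand) and Abcc2 (chr19:43782188-43782307, plus strand). For Slc51b (chr9:65422904-65423023, minus strand) the 120 bases that begin 250 bases before the start site are shown. Abcg5 and Abcg8 start on opposite strands, and the 109 bases between both start sites (chr17:84683012-84683120, printed on the plus strand of Abcg8) are upstream sequence of each. Abcg8 has a further RefSeq window, at chr17:84676052-84676351, that is not shown.
Abcb11: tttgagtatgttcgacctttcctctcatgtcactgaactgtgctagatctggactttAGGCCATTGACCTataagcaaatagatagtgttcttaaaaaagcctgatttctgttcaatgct
Abcc2: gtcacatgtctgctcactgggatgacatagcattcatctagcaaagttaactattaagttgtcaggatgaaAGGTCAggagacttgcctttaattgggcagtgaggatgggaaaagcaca
Slc51b: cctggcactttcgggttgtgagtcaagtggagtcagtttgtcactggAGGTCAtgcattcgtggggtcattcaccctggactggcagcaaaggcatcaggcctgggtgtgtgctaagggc
Abcg5-Abcg8: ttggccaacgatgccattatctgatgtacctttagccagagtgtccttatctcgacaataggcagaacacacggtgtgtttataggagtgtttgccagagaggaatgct
Capitals mark matches to letters that nuclear receptors are known to bind. The Abcb11 match is to the inverted repeat IR-1, the FXR type of element, in which the half-site AGGTCA is followed after 1 base by its reverse complement. A mismatch at 1 base was allowed, and both strands were searched. It lies at bases -63 to -51 from the start site and carries T4C, counted from 1 at the 5′ end of the repeat. Of 32851 promoter windows of this length, 27 (0.0822%) held such a match, and no window of the other 7 exporter genes searched did. The half-site alone, which overlaps that repeat in Abcb11, was found in Abcb11, Abcc2 and Slc51b and in 16.3% of all windows. The antioxidant response element core TGACNNNGC, also on either strand, was found in Abcc2, Abcb1a and Abcc4 and in 12.4% of all windows. These are matches of letters, not measured binding sites.

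Fragment totals recovered from the deposited values ran from 30893098 to 37381734 per library. Sham library 1 stood apart from the other sham libraries. Its correlations with them across genes were 0.974 and 0.964, against 0.989 between sham 2 and 3. Hepatocyte markers were abundant in all libraries, with 10 of 10 detected and none at 0 throughout a group. Their summed level was 43522 to 49613 FPKM in BDL+LIG, 37214 to 44532 FPKM in BDL and 53978 to 63960 FPKM in sham, most of it from Alb and Apoa1. By gene the list had no common direction in BDL against sham, with 2 of 10 higher, 2 lower and a median of -0.04. Over all tested genes 22.9% were higher and 6.76% lower, with a median of 0.16. In the limma fit described below, 6 of the 10 had an unadjusted p under 0.05, and limma's voom called 5. Bile duct markers, also 10 of 10 detected, summed to 247 to 492 FPKM in BDL+LIG, 443 to 643 in BDL and 43.8 to 63.8 in sham. In whole tissue, fewer cells of a type and less RNA per cell cannot be told apart.

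Levels below are the deposited FPKM, fragments scaled to transcript length and library depth. A change is the fitted difference in log2(FPKM + 1) with its SE, estimated by limma on the 10142 genes that reached 1 FPKM in 3 or more libraries. Adjusted p-values are over all of these genes, and 0.05 is the threshold. In sham liver the mean levels fell into a high and a low set. Abcb11 averaged 49.0 FPKM, Abcb4, Abcc2, Abcg5 and Abcc3 between 31.3 and 34.4, and Abcg8 20.004. The other 4 genes lay far lower, Atp8b1 at 3.08 FPKM, Slc51b at 0.816, Abcb1a at 0.198 and Abcc4 at 0.0769. The sham ranges of Abcb4, Abcc2, Abcg5 and Abcc3 overlapped each other and that of Abcb11 (38.4 to 68.9 FPKM). The range of Abcg8 (14.9 to 25.8 FPKM) overlapped those of Abcc2, Abcg5 and Abcc3. The order of genes whose ranges overlap is not resolved.

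The comparison of BDL with sham asked how ligation changed the exporters. Every basolateral gene was higher, while the canalicular genes split: the bile acid, phospholipid, flippase and multidrug genes rose and the sterol pair fell. Of the 9 genes tested, 6 rose, 2 fell and 1 did not pass, against 29.7% of all tested genes called (22.9% higher, 6.76% lower). By membrane, 4 of 7 canalicular genes rose and 2 fell, and the 2 tested basolateral genes rose. Slc51b and Abcb1a passed the filter on low values only through the ligated groups, where they are high, so these counts are a description and no support. The libraries of BDL and sham did not overlap for 8 of the 9 genes, 6 higher and 2 lower, which held for 45% of all tested genes (33.7% higher, 11.3% lower).

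Slc51b, which encodes the β subunit of the basolateral bile acid transporter OSTα-OSTβ, had the largest change of the 9. It stood at 28.03, 27.90 and 32.65 FPKM in the BDL libraries and at 1.52, 0.926 and 0 FPKM in the sham libraries. The groups lay far apart, and the sham values rest on 27, 16 and 0 fragments against 554 to 558 in BDL. The mean was 36.2-fold higher (4.17 ± 0.31, adjusted p = 9.89e-06), and 63.8-fold higher without sham library 1. Slc51b is known to be active in bile duct cells as well as in hepatocytes, and its rise went with that of the bile duct markers, whose part in the result was not tested. The α subunit gene Slc51a was not found under that name among the deposited values, so it could not be analysed here.

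Abcc3, a basolateral exporter of glucuronides and bile acids, stood at 52.9, 51.2 and 49.2 FPKM in BDL and at 39.0, 25.1 and 29.8 FPKM in sham. All BDL libraries lay above all sham libraries, and the gene rose by 0.71 ± 0.16 (adjusted p = 0.00779). With median-of-ratios scaling the rise was 0.43 and no longer passed (adjusted p = 0.0772). Abcc4, which exports bile acids together with glutathione, remained the least abundant of the 10. It stood at 0.334, 0.449 and 0.480 FPKM in BDL and at 0.109, 0.0683 and 0.0536 FPKM in sham, that is 124 to 166 fragments against 17 to 36. The groups did not overlap, and the mean was 5.47-fold higher. Tested on the recovered fragments with limma's voom, an alternative chosen after seeing the data, Abcc4 rose by 2.41 ± 0.38 (adjusted p = 0.00121). The exporters were kept in the voom fit whatever their level. In the limma fit with no filter, the change of Abcc4 in log2(FPKM + 1) was 0.40 (adjusted p = 0.00468).

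Among canalicular genes the clearest rise of an abundant transcript was that of Abcb4, the phosphatidylcholine floppase. It stood at 67.0, 67.3 and 65.1 FPKM in BDL and at 39.6, 32.0 and 31.7 FPKM in sham, with no overlap (0.94 ± 0.13, adjusted p = 0.000498). Atp8b1, the aminophospholipid flippase that keeps the canalicular membrane stable, was at 4.87, 5.90 and 6.30 FPKM in BDL and 4.13, 2.44 and 2.67 FPKM in sham. Its rise of 0.73 ± 0.17 passed (adjusted p = 0.00904). Tmem30a, which encodes the partner subunit of such flippases, averaged 28.7 ± 1.80 FPKM in BDL and 33.6 ± 8.92 FPKM in sham (SD, n = 3 each) and did not pass (-0.19 ± 0.17, adjusted p = 0.449).

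Abcb1a, a multidrug P-glycoprotein of the canalicular membrane, was barely detected in sham. It stood at 2.54, 2.71 and 3.60 FPKM in BDL and at 0.276, 0.262 and 0.0553 FPKM in sham. That is 536 to 650 fragments against 10 to 52, with a mean 14.9-fold higher (1.72 ± 0.16, adjusted p = 4.13e-05). Its close paralog Abcb1b averaged 0.181 ± 0.0391 FPKM in BDL and 0.236 ± 0.0797 FPKM in sham (SD, n = 3 each) and was too low to test. How fragments shared by the paralogs were divided is uncertain. Abcb1a is also known from endothelium, whose 8 markers summed to 28.2 to 31.2 FPKM in BDL and 22.5 to 25.4 FPKM in sham, and their part in the result was not tested.

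The main bile acid pump moved less. Abcb11 stood at 70.3, 71.7 and 69.7 FPKM in BDL and at 68.9, 39.6 and 38.4 FPKM in sham. Sham library 1 nearly reached the BDL level, so the groups were separated by the other sham libraries. The rise of 0.57 ± 0.19 passed narrowly (adjusted p = 0.0463). Without sham library 1 it was 0.84 (adjusted p = 0.000134), and in each of the 8 fits that left out another library it did not pass (0.42 to 0.58). It passed in 6 of the 11 other alternatives, and median-of-ratios scaling was among those where it did not (0.29, adjusted p = 0.18).

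Abcc2, the anion exporter, could not be ordered against sham, whose libraries spanned a wide range. It stood at 25.3, 26.2 and 27.2 FPKM in BDL and at 65.4, 20.6 and 14.0 FPKM in sham. The BDL libraries fell inside the sham range, and the change was -0.03 ± 0.42 (adjusted p = 0.965). Without sham library 1 the direction turned and passed (0.60, adjusted p = 0.0115).

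The sterol half-transporters Abcg5 and Abcg8, which work as a heterodimer, were the members that fell. Abcg8 stood at 8.49, 9.41 and 7.13 FPKM in BDL and at 25.8, 19.3 and 14.9 FPKM in sham (-1.14 ± 0.18, adjusted p = 0.00125). Abcg5 stood at 18.6, 20.4 and 18.8 FPKM in BDL and at 45.8, 31.4 and 22.8 FPKM in sham (-0.71 ± 0.21, adjusted p = 0.0282). Neither pair of groups overlapped, and both genes were highest in sham library 1. Abcg5 no longer passed when BDL library 1, 2 or 3 or sham library 2 was left out (adjusted p = 0.0661 to 0.0885), nor with TPM (-0.63, adjusted p = 0.077), with no filter (adjusted p = 0.0828) or with BDL and sham alone (adjusted p = 0.0541). Abcg8 also has another annotated start site outside the region printed above. The ratio of Abcg5 to Abcg8 was 2.19, 2.17 and 2.63 in BDL and 1.77, 1.63 and 1.53 in sham. The ratios did not overlap, and the exact two-sided permutation test gave p = 0.1, the smallest that 3 against 3 allows.

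**Figure D1:**
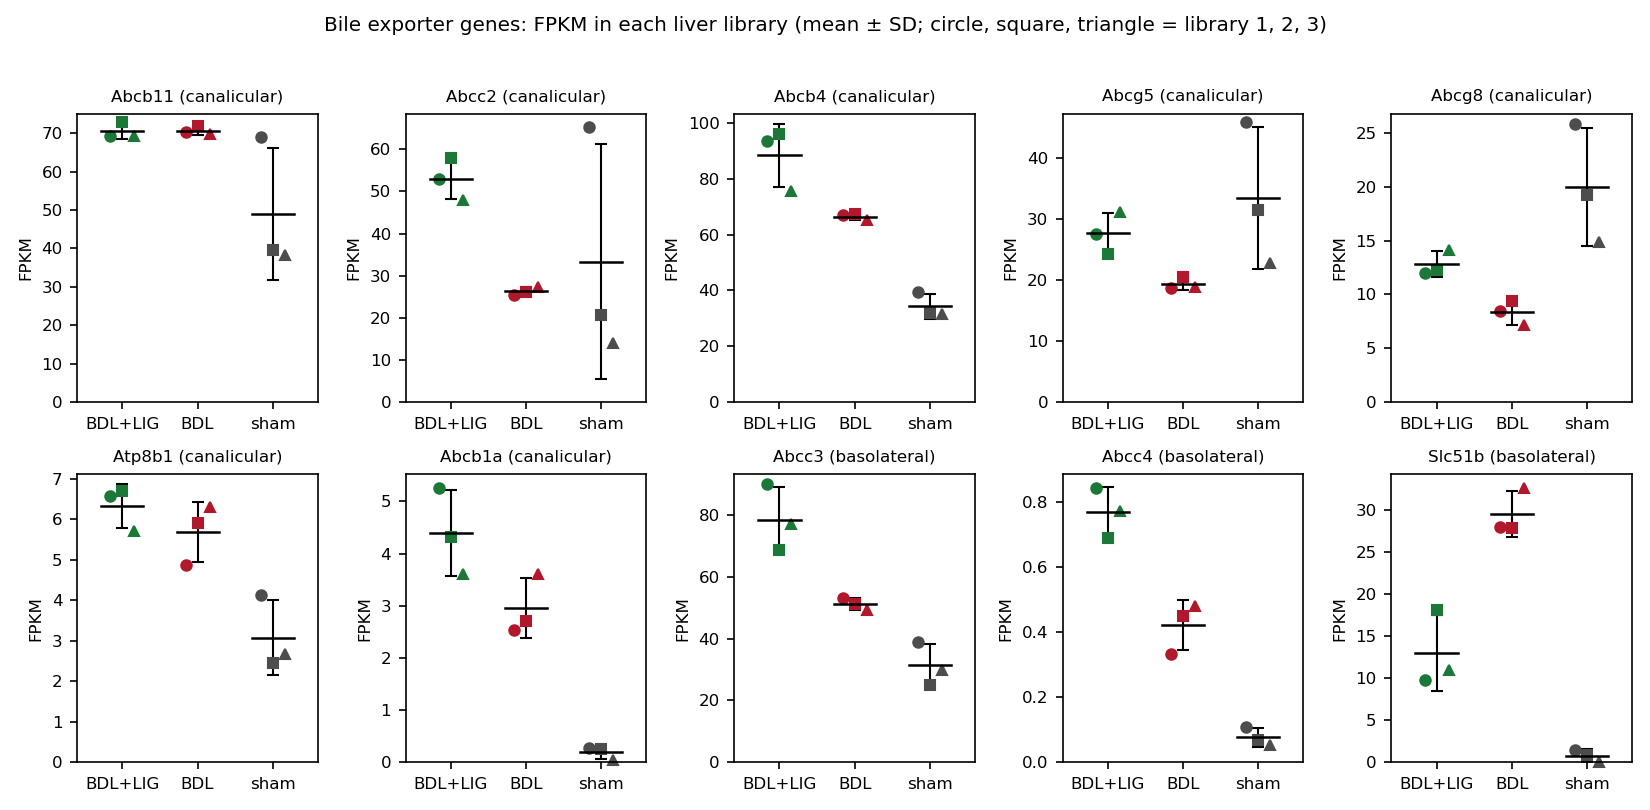
FPKM of the 10 exporter genes in each library (points; circle, square and triangle are libraries 1, 2 and 3) for BDL+LIG, BDL and sham, with the mean (line) and SD (bar) of 3 libraries. Slc51b is at 27.9 to 32.7 FPKM in BDL and 0 to 1.52 FPKM in sham, and sham library 1 stands above the other sham libraries in Abcb11 and Abcc2.

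The comparison of BDL+LIG with BDL asked what ligustilide changed in ligated liver. Slc51b fell and Abcc3 rose, both basolateral, and 7 of 7 canalicular genes did not pass. So 2 of 9 tested genes were called, against 11.8% of all tested genes (9.98% higher, 1.79% lower). Of the 7 canalicular genes, 5 had an unadjusted limma p under 0.05, and voom also called 0. Abcb4 and Abcg8 were called with TPM (adjusted p = 0.0389 and 0.0434), and 4 canalicular genes with BDL+LIG and BDL alone. The median change of the canalicular genes was 0.45, against 0.18 over all tested genes. Leaving out any library of BDL or BDL+LIG took away both, and leaving out sham library 1, which enters only through the shared spread, gave 7 called genes.

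Slc51b stood at 9.83, 18.2 and 10.96 FPKM in BDL+LIG, against 28.03, 27.90 and 32.65 FPKM in BDL. Every BDL+LIG library was below every BDL library, on 192 to 350 fragments against 554 to 558. The mean was 0.440 times that of BDL, and the gene fell by 1.17 on the log2 scale (SE 0.31, adjusted p = 0.0408). In all 20 alternatives it stayed lower, from -0.70 with a trend in gene length removed to -1.42 without BDL+LIG library 2. It passed in 2 of the 9 fits that left out a library and in 4 of the 11 other alternatives. It missed with a pseudocount of 0.1 (adjusted p = 0.327), a replicate block (adjusted p = 0.0531) and the length trend removed (adjusted p = 0.306). Bile duct markers summed to 247, 492 and 434 FPKM in BDL+LIG libraries 1 to 3 and to 443, 561 and 643 FPKM in BDL. Spp1, the osteopontin gene, made up most of these sums, and the other 9 markers together gave 79.1, 81.2 and 71.4 FPKM in BDL+LIG and 64.7, 80.8 and 85.6 FPKM in BDL. The part of the markers in the result was not tested. By limma's adjusted p 0 of the 8 duct markers tested changed (2 at an unadjusted p under 0.05, 0 with voom), Krt7 at -0.04 ± 0.21 and Krt19 at 0.13 ± 0.27 (adjusted p = 0.904 and 0.758).

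Abcc3 stood at 89.8, 68.6 and 76.8 FPKM in BDL+LIG, against 52.9, 51.2 and 49.2 FPKM in BDL. The libraries did not overlap, and the gene rose by 0.60 ± 0.16 (adjusted p = 0.0406). With median-of-ratios scaling the change was 0.34 (adjusted p = 0.223). Abcc4 stood at 0.843, 0.689 and 0.771 FPKM in BDL+LIG, against 0.334, 0.449 and 0.480 FPKM in BDL, again with no overlap. Its mean was 1.82-fold higher, and with voom on the recovered fragments it rose by 0.90 ± 0.23 (adjusted p = 0.032). In the limma fit with no filter its change was 0.32 (adjusted p = 0.0389). The 3 basolateral genes thus did not move one way: the OST subunit was lower with ligustilide, while both ABCC exporters were higher.

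Abcc2 had the largest mean change of the canalicular genes. It stood at 53.0, 57.8 and 48.1 FPKM in BDL+LIG, against 25.3, 26.2 and 27.2 FPKM in BDL, so that the lowest BDL+LIG library was well above the highest BDL library. The mean was 2.02-fold higher, yet the change did not pass in the fit of all 9 libraries (0.98 ± 0.42, adjusted p = 0.135). That fit carries the wide sham spread of this gene. In the fit of the BDL+LIG and BDL libraries alone the same change of 0.98 passed (adjusted p = 0.00237), as it did without sham library 1 (adjusted p = 0.00287).

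The remaining canalicular genes were higher by smaller amounts or close to level. Abcb4 stood at 93.7, 96.2 and 75.5 FPKM in BDL+LIG, against 67.0, 67.3 and 65.1 FPKM in BDL (0.40 ± 0.13, adjusted p = 0.0689). Abcg8 stood at 12.0, 12.3 and 14.2 FPKM in BDL+LIG, against 8.49, 9.41 and 7.13 FPKM in BDL (0.57 ± 0.18, adjusted p = 0.0669). Abcg5 stood at 27.5, 24.2 and 31.1 FPKM in BDL+LIG, against 18.6, 20.4 and 18.8 FPKM in BDL (0.49 ± 0.21, adjusted p = 0.138). In none of these 3 genes did the libraries overlap. Over the 9 tested genes BDL+LIG and BDL did not overlap for 6, 5 higher and 1 lower, against 51.2% of all tested genes (40.7% higher, 10.5% lower). Abcb1a was at 5.26, 4.32 and 3.60 FPKM in BDL+LIG and overlapped BDL at the edge (0.45 ± 0.16, adjusted p = 0.0914). The 8 endothelial markers summed to 48.9 to 71.2 FPKM in BDL+LIG and 28.2 to 31.2 FPKM in BDL. Of these, 7 of the 7 tested rose, against 9.98% of all tested genes called higher. Kdr and Lyve1 passed the filter on low values only through BDL+LIG, where they are high, so this count is a description and no support. The part of the endothelial markers in the Abcb1a values was not tested.

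Abcb11 and Atp8b1 were the members nearest to no change. Abcb11 stood at 69.3, 72.9 and 69.3 FPKM in BDL+LIG, against 70.3, 71.7 and 69.7 FPKM in BDL, and both groups overlapped within a narrow range (0.00 ± 0.19, adjusted p = 0.997). Atp8b1 stood at 6.58, 6.71 and 5.70 FPKM in BDL+LIG, against 4.87, 5.90 and 6.30 FPKM in BDL (0.14 ± 0.17, adjusted p = 0.61). The sign of Atp8b1 turned under median-of-ratios scaling (-0.09) and that of Abcb11 under rescaling to TPM (0.15). Median-of-ratios scaling moved the median of all tested genes in this comparison to -0.03, and only Slc51b of the 9 was then called.

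**Figure D2:**
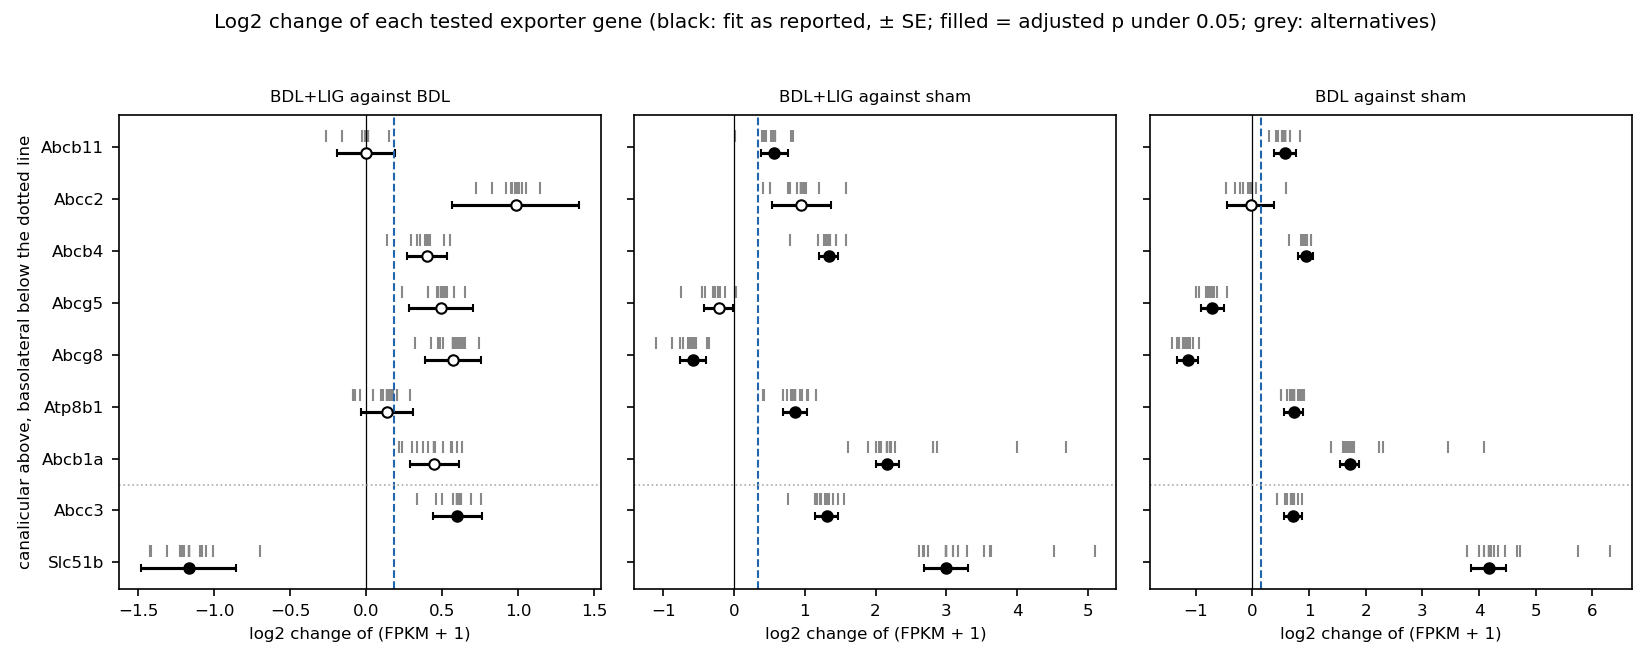
Change of log2(FPKM + 1) for the 9 tested exporter genes in 3 comparisons (black points, ± SE; filled where the adjusted p was under 0.05), with each alternative setting as a grey tick and the median of all tested genes as a blue dashed line. Slc51b is the only gene below 0 in BDL+LIG against BDL under every setting, and Abcg5 and Abcg8 are below 0 in BDL against sham under every setting.

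The third comparison, BDL+LIG with sham, shares its libraries with the others and shows which exporters stood away from sham in treated liver. Of the 9 tested genes, 6 were higher and 1 lower, against 52.6% of all tested genes called (43.7% higher, 8.92% lower). The libraries of 7 of the 9 did not overlap with sham, 6 higher and 1 lower, against 55.4% of all (45.7% higher, 9.71% lower). Slc51b and Abcb1a passed the filter on low values only through the ligated groups, so these counts too are a description and no support. Slc51b was still 15.9-fold higher than in sham (3.00 ± 0.31, adjusted p = 4.95e-05), or 28.1-fold without sham library 1, and Abcb1a 22.2-fold (2.16 ± 0.16, adjusted p = 8.2e-06). Abcb4 (1.34 ± 0.13, adjusted p = 3.32e-05), Abcc3 (1.31 ± 0.16, adjusted p = 0.000121) and Atp8b1 (0.86 ± 0.17, adjusted p = 0.00188) were higher as well. Abcb11 passed (0.57 ± 0.19, adjusted p = 0.0288), and did so in 4 of 9 fits with a library left out and in 7 of 11 other alternatives. It missed without sham library 2 or 3 or any BDL+LIG library (adjusted p = 0.0593 to 0.111), and its change was 0.02 with median-of-ratios scaling (adjusted p = 0.92). Abcg8 was still lower (-0.57 ± 0.18, adjusted p = 0.0235) and did not pass with TPM (-0.36, adjusted p = 0.179), with no filter (adjusted p = 0.0556) or without sham library 2, BDL+LIG library 1 or BDL+LIG library 2 (adjusted p = 0.0554 to 0.0681). Abcg5, at -0.22 ± 0.21 (adjusted p = 0.407), and Abcc2, at 0.95 ± 0.42 (adjusted p = 0.0766), did not pass. Abcg5 was called with median-of-ratios scaling (-0.76, adjusted p = 0.00619). Abcc2 passed without sham library 1 (1.58, adjusted p = 3.63e-05). For Slc51b the order was thus BDL, BDL+LIG and sham, and for Abcc3 it was BDL+LIG, BDL and sham, each step past the threshold in the fit of all libraries. For Abcb4 and Atp8b1 the step between BDL+LIG and BDL did not pass.

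The balance between the membranes was read within each library, where it does not depend on how libraries are scaled. The 3 basolateral genes made up 27.3, 24.2 and 26.4% of the summed FPKM of all 10 in BDL+LIG, 29.2, 28.1 and 29.4% in BDL and 14.0, 15.2 and 19.4% in sham. Both ligated groups lay above sham, and BDL+LIG lay below BDL. That last order rests on Slc51b, at 9.83, 18.2 and 10.96 FPKM in BDL+LIG and 28.03, 27.90 and 32.65 FPKM in BDL. Abcc3 and Abcc4 were higher in BDL+LIG than in BDL, so the lower share is not a shift shared by the basolateral genes. The canalicular sum was 267, 274 and 247 FPKM in BDL+LIG, 197, 204 and 198 FPKM in BDL and 249.9, 146 and 125 FPKM in sham, so that sham library 1 lay within the BDL+LIG range. The basolateral sum was 100.4, 87.5 and 88.5 FPKM in BDL+LIG, 81.3, 79.6 and 82.4 FPKM in BDL and 40.6, 26.1 and 29.9 FPKM in sham. Abcc3 accounted for 78.4 to 89.4% of the basolateral sum in BDL+LIG, 59.8 to 65.1% in BDL and 95.98 to 99.8% in sham.

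**Figure D3:**
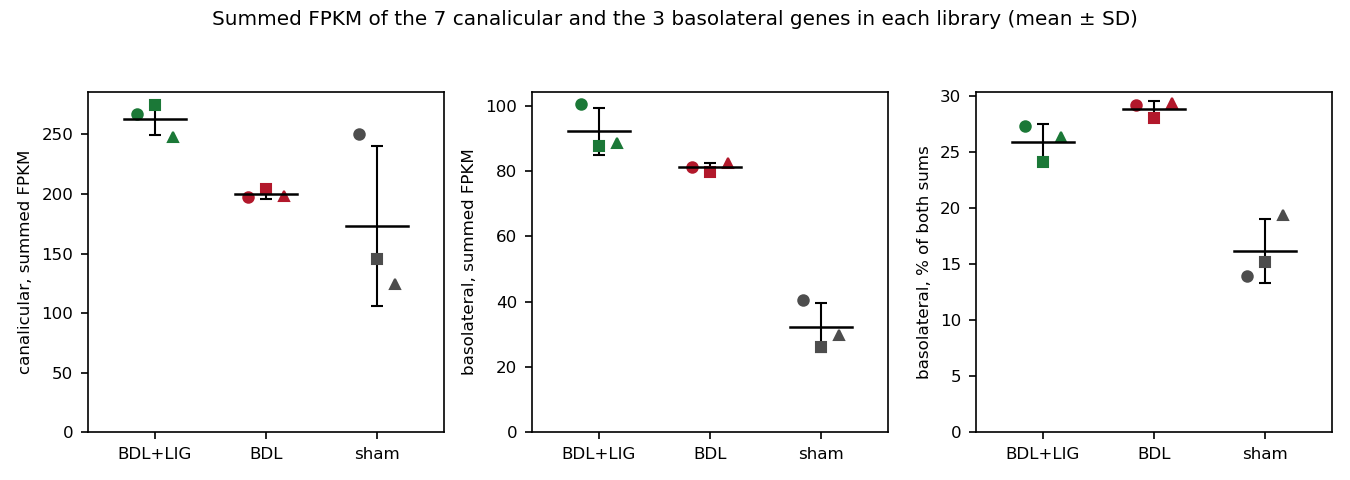
Summed FPKM of the 7 canalicular genes, of the 3 basolateral genes, and the basolateral share of both sums (%), in each library of BDL+LIG, BDL and sham (points) with mean and SD of 3 libraries. The basolateral share is 24.2 to 27.3% in BDL+LIG, 28.1 to 29.4% in BDL and 14.0 to 19.4% in sham.

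Pairs of genes with related cargo were compared in the same way, as log2 ratios of FPKM with exact two-sided permutation tests, which cannot give a p below 0.1 with 3 against 3. Slc51b over Abcb11 averaged -2.49 ± 0.43 in BDL+LIG and -1.26 ± 0.15 in BDL (SD, n = 3 each; exact p = 0.1), and stood at -5.50 and -5.42 in the sham libraries where Slc51b was above 0. Abcc4 over Abcb11 averaged -6.53 ± 0.19 in BDL+LIG, -7.41 ± 0.28 in BDL and -9.32 ± 0.15 in sham (SD, n = 3 each), with no overlap between any groups (exact p = 0.1 each). Abcc4 over Abcc2 averaged -6.11 ± 0.24 in BDL+LIG, -5.98 ± 0.23 in BDL and -8.50 ± 0.64 in sham (SD, n = 3 each), and BDL+LIG overlapped BDL (exact p = 0.5). Abcc3 over Abcc2 averaged 0.56 ± 0.28 in BDL+LIG, 0.96 ± 0.10 in BDL and 0.21 ± 0.92 in sham (SD, n = 3 each). BDL+LIG lay below BDL without overlap (exact p = 0.1), and sham overlapped both.

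Within the canalicular membrane the phospholipid and bile acid exporters also shifted against each other. Abcb4 over Abcb11 was 1.35, 1.32 and 1.09 as a plain ratio in BDL+LIG, 0.954, 0.938 and 0.934 in BDL and 0.574, 0.806 and 0.825 in sham. The 3 groups did not overlap, and each comparison gave the smallest possible p (exact p = 0.1). Atp8b1 over Abcb4 overlapped between BDL and sham (-3.55 ± 0.21 and -3.51 ± 0.23 on the log2 scale, SD, n = 3 each; exact p = 0.8). The difference was -0.04 and changed sign without sham library 1 (0.08) or BDL library 1 (0.07).

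**Figure D4:**
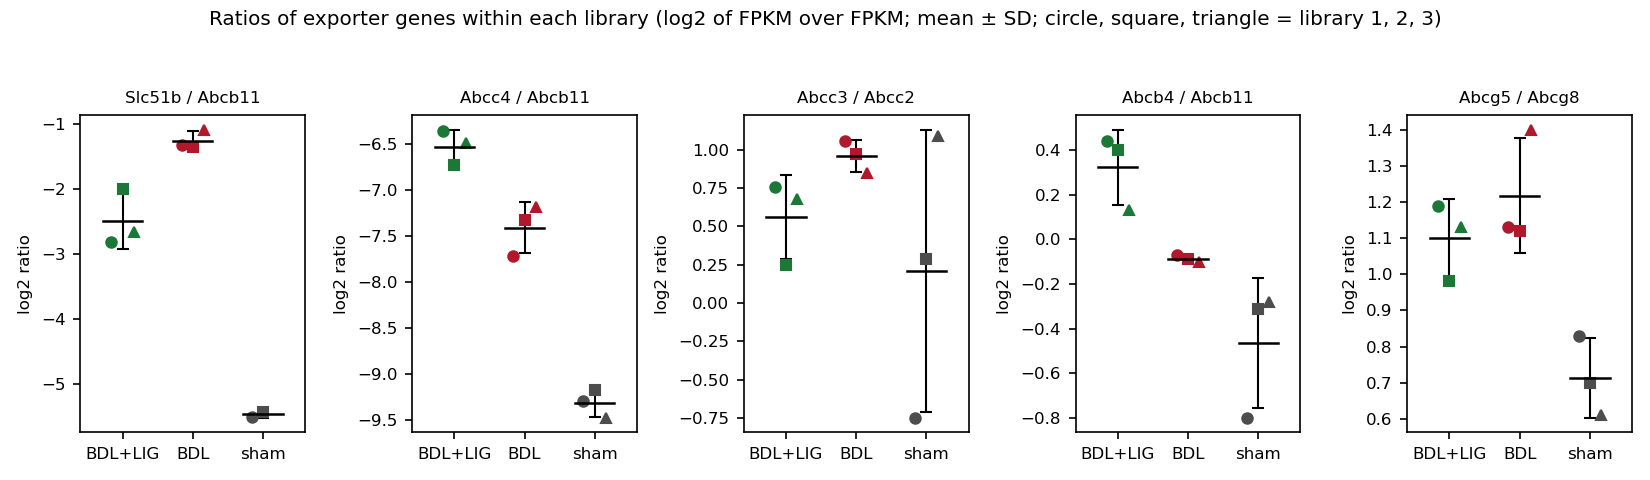
Log2 ratio of FPKM for 5 pairs of exporter genes in each library of BDL+LIG, BDL and sham (points; sham library 3 has no point for Slc51b / Abcb11, since Slc51b is listed at 0), with mean and SD. Slc51b over Abcb11 averages -2.49 in BDL+LIG and -1.26 in BDL, and Abcb4 over Abcb11 separates the 3 groups.

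Of 9 other hepatocyte exporters listed, 5 were tested. In BDL against sham 0 rose, 2 fell and 3 did not pass, where 22.9% of all tested genes were higher and 6.76% lower. Of the 5, 3 had an unadjusted limma p under 0.05, and voom called 2. The falls were those of Abcc6, a basolateral ABCC protein needed for ATP release (-1.21 ± 0.28, adjusted p = 0.00897), and Slc47a1, a cation-proton exchanger (-0.57 ± 0.18, adjusted p = 0.0369). Abcg2, a canalicular exporter of sulfated conjugates, averaged 12.5 ± 1.02 FPKM in BDL and 16.3 ± 1.63 FPKM in sham (SD, n = 3 each; -0.36 ± 0.15, adjusted p = 0.105). Abca1, which loads cholesterol onto apolipoprotein A-I at the basolateral side, did not pass (0.46 ± 0.26, adjusted p = 0.218). With ligustilide 0 of these 5 changed against BDL by limma's adjusted p, and voom called 0. The copper exporter gene Atp7b alone had an unadjusted p under 0.05 (0.71 ± 0.24, adjusted p = 0.0725).

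Of the scaffold and trafficking genes of the canaliculus, 10 were tested. In BDL against sham 3 rose, 1 fell and 6 did not pass, close to the 22.9% higher and 6.76% lower of all tested genes, and the median of 0.13 was close to their 0.16. Ezr, which encodes ezrin, a linker of membrane proteins to actin that is abundant in duct cells, rose by 1.64 ± 0.16 (adjusted p = 4.31e-05). The motor gene Myo5b (0.65 ± 0.18, adjusted p = 0.0234) and Rab11a of recycling endosomes (0.40 ± 0.11, adjusted p = 0.0205) rose. Pdzk1, a PDZ scaffold, fell (-0.79 ± 0.17, adjusted p = 0.00719). Radixin, the ezrin relative that tethers ABCC2 in mouse hepatocytes, is encoded by Rdx and did not pass (-0.07 ± 0.19, adjusted p = 0.826). In BDL+LIG against BDL 9.98% of all tested genes were higher and 1.79% lower. Of the 10, 0 rose and 1 fell, the scaffold gene Slc9a3r1, at 137 ± 10.9 FPKM in BDL+LIG and 194 ± 3.36 FPKM in BDL (SD, n = 3 each; -0.50 ± 0.14, adjusted p = 0.0485).

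Of 12 receptor and transcription factor genes that are known to act on exporters, 2 rose, 2 fell and 8 did not pass in BDL against sham, where 22.9% of all tested genes were higher and 6.76% lower. Nfe2l2, which encodes NRF2 (1.36 ± 0.31, adjusted p = 0.00821), and Nr1i2, which encodes PXR (0.63 ± 0.13, adjusted p = 0.00538), rose. Nr1h4, the FXR gene (-0.65 ± 0.11, adjusted p = 0.00174), and Ppara (-1.04 ± 0.22, adjusted p = 0.00557) fell. The FXR target and corepressor gene Nr0b2 (0.20 ± 0.29, adjusted p = 0.642), the CAR gene Nr1i3 (-0.28 ± 0.32, adjusted p = 0.539) and the LXRα gene Nr1h3 (-0.01 ± 0.11, adjusted p = 0.941) did not pass. In BDL+LIG against BDL 9.98% of all tested genes were higher and 1.79% lower. Of the 12, 2 rose, 0 fell and 10 did not pass, with a median of 0.30. They were Rxra, the shared partner of these receptors, at 69.9 ± 4.62 FPKM in BDL+LIG and 45.1 ± 1.96 FPKM in BDL (SD, n = 3 each; 0.62 ± 0.11, adjusted p = 0.0131), and Ppara (0.78 ± 0.22, adjusted p = 0.0458).

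Target genes of these factors outside the exporters were counted by list. Over all tested genes, 22.9% were higher and 6.76% lower in BDL against sham, with a median of 0.16. In BDL+LIG against BDL 9.98% were higher and 1.79% lower, with a median of 0.18. NRF2 targets had 6 of 8 up and 1 down in BDL against sham, with a median of 0.88, Hmox1 at 1.84 ± 0.16 and Nqo1 at 1.39 ± 0.18 (adjusted p = 2.11e-05 and 0.000297). With ligustilide 0 of the 8 changed against BDL by limma's adjusted p, 0 at an unadjusted p under 0.05 and 0 with voom. Macrophage markers, of which 10 of 10 were tested, rose in BDL against sham in 10 of 10, where 22.9% of all tested genes were higher. Among them, Ccr2 and Trem2 passed the filter on low values only through the ligated groups, where they are high, so this count is a description and no support. The 10 markers summed to 450 to 614 FPKM in BDL and 104 to 170 FPKM in sham. Hmox1, Pltp and Abcg1 are known from macrophages too, and the part of these cells in the values was not tested. LXR targets had 2 of 8 up and 0 down after ligation, with a median of 0.13, Pltp (1.60 ± 0.22, adjusted p = 0.000492) and Abcg1 (1.10 ± 0.20, adjusted p = 0.00263), while Abcg5 and Abcg8, also known LXR targets, fell. Abcg1 passed the filter on low values only through the ligated groups. With ligustilide 2 of the 8 LXR targets rose against BDL, with a median of 0.26, Mylip, a ubiquitin ligase for the LDL receptor (1.10 ± 0.12, adjusted p = 0.00697), and Scd1, a fatty acid desaturase (1.65 ± 0.41, adjusted p = 0.0319). Mylip passed the filter on low values only through BDL+LIG, where it is high, so this count is a description and no support.

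The list of FXR targets outside the exporters holds genes that FXR is known to induce and others that it represses, so its counts carry no single direction. The shares of all tested genes were 22.9% higher and 6.76% lower in BDL against sham, and 9.98% and 1.79% in BDL+LIG against BDL. After ligation 3 of the 11 tested rose, Sdc1, the syndecan-1 gene (1.38 ± 0.14, adjusted p = 6.08e-05), Pltp and Fgb, a fibrinogen gene (0.79 ± 0.26, adjusted p = 0.0453). The 3 that fell were Cyp8b1 (-2.36 ± 0.13, adjusted p = 2.26e-06) and the bile acid uptake gene Slc10a1 (-0.97 ± 0.12, adjusted p = 0.000174), both known to be repressed through FXR, and Slc27a5 (-0.51 ± 0.15, adjusted p = 0.0308). Cyp7a1 of the same list went the other way, at 0.93 ± 0.44 in BDL against sham without passing (adjusted p = 0.14). In BDL+LIG against sham Cyp7a1 was higher (1.35 ± 0.44, adjusted p = 0.0246). The groups overlapped, since sham library 1, at 31.7 FPKM, lay within the BDL+LIG range of 24.1 to 48.9 FPKM. With ligustilide Cyp8b1 (0.73 ± 0.13, adjusted p = 0.0141) and Sdc1 (0.50 ± 0.14, adjusted p = 0.0451) rose against BDL and Fetub, a fetuin gene, fell (-0.71 ± 0.17, adjusted p = 0.0304). CAR and PXR targets had 3 of 7 up and 1 down after ligation, with a median of 0.64. Cyp2c29 fell (-2.16 ± 0.18, adjusted p = 1.67e-05), and Por was among the rises (0.77 ± 0.16, adjusted p = 0.00426). With ligustilide 2 of 7 rose against BDL, with a median of 0.38, Cyp2c29 (0.95 ± 0.18, adjusted p = 0.0146) and Cyp2b10 (1.14 ± 0.32, adjusted p = 0.0451). Cyp2b10 passed the filter on low values only through BDL+LIG, where it is high, so this count is a description and no support. Cyp2c29 was still below sham in BDL+LIG (-1.21 ± 0.18, adjusted p = 0.000344).

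For 8 of the exporters, the genes with the most similar pattern were taken by Pearson correlation of log2(FPKM + 1) over the 9 libraries, as a description with no test. Most of these patterns share the separation of sham from ligated libraries. Exceptions are Abcc2, whose ligated libraries lay within the sham range, and Abcg5, where BDL+LIG overlapped sham. Closest to Abcb1a were Cldn4, a claudin of tight junctions (0.996), Ccn2, a matricellular factor (0.994), and Wwtr1, which encodes TAZ (0.993). Closest to Abcb4 were Entpd5 (0.996), Rhou (0.995) and Sdc1 (0.992), and closest to Abcc3 was Pttg1ip (0.994). Abcb11 was followed most closely by Baiap2 (0.992). Closest to Abcg5 stood Zfp467 (0.950) and to Abcg8 the lipase gene Lipe (0.962), while for Abcc2 it was Usp40 (0.988) and for Slc51b Pdcl3 (0.985).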

How the data were processed

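The authors deposited FPKM values for 21470 genes, 1 column per library. The submitters' processing notes name fastp, HISAT2 2.1.0, DESeq2 and build GRCm39, while the sources used here name no annotation or counting program. Groups and replicate numbers came from sample titles.

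In each library the FPKM of a gene moves in steps of 1 fragment. Whole fragments were recovered on this basis for 19446 of the 19449 genes examined (99.98%, tolerance 0.02 fragments). They give the depth and feed the voom alternative.

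All 9 libraries entered 1 limma fit (limma 3.58.1, R 4.3.3; lmFit, eBayes with trend) of log2(FPKM + 1), with Benjamini-Hochberg adjustment over 10142 genes. This scale understates changes of low genes. Recovery and fit were tested on simulated data. Ratios used exact permutation tests (scipy 1.17.1). Alternatives were other pseudocounts (0.1, 0.5), other filters (none, or a mean of 5 FPKM), median-of-ratios scaling, TPM, quantile normalization, the 2 groups alone, a replicate block and leaving out each library. Voom and removal of a length trend (loess, span 0.4) were chosen after seeing the data. Named genes were the exporters, a fixed set of related genes, up to 4 genes per list and comparison with the smallest p, and up to 3 genes nearest in pattern. Slc27a5, Cyp7a1, Lyve1 and the split of the duct markers by Spp1 were chosen after their values were seen. Members and lists were chosen with earlier results of these data known. The genes nearest in pattern to Atp8b1 are not reported here.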

Additional observations from a re-analysis of the deposited data

How the results depend on the processing

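In BDL against sham 3008 genes were called in the fit of all libraries, 1838 with a mean of at least 5 FPKM and 1894 to 4668 with a library left out, lowest without BDL library 3, 1902 without BDL library 2 and highest without sham library 1. In BDL+LIG against BDL 1194 genes were called, against 623 with no filter, 575 with a mean of at least 5 FPKM, 630 with median-of-ratios scaling, 1926 with TPM, 3433 with the 2 groups alone and 0 to 3144 with a library left out. The 0 fell without BDL library 2, where 2317 genes had an unadjusted limma p under 0.05, and the 3144 without sham library 1. The counts were 40 without BDL library 1, 54 without BDL library 3, and 716, 289 and 322 without BDL+LIG library 1, 2 and 3. In BDL+LIG against sham 5335 genes were called, 2765 with a mean of at least 5 FPKM. The filter at a mean of 5 FPKM left 5293 genes to test, of which 34.7%, 10.9% and 52.2% were called in BDL against sham, BDL+LIG against BDL and BDL+LIG against sham, and no filter left 21470. The cause of the other shifts was not tested. Median-of-ratios scaling split the calls into 1462 higher and 1466 lower in BDL against sham, against 2322 and 686 as deposited. It gave 275 and 355 in BDL+LIG against BDL, against 1012 and 182, and 2149 and 2771 in BDL+LIG against sham, against 4430 and 905. Quantile normalization gave 1510 and 1402, 575 and 531, and 2273 and 2247. TPM gave 2530 and 529, 1828 and 98, and 5620 and 535.

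In BDL+LIG against BDL 2 exporters were called, but 1 with a pseudocount of 0.1 or 0.5, median-of-ratios or quantile scaling. The count was 3 with TPM, 6 with the 2 groups alone, 0 with the length trend removed and 0 to 7 with a library left out. With no filter 1 was called, but that was Abcc4, which is outside the 9 genes of the main fit, and none of the 9 passed. Voom called 1 of the 9, and Abcc4 besides. Signs turned for Abcc2 in BDL against sham (0.06 with TPM; -0.47 to 0.60 with a library left out), Abcg5 in BDL+LIG against sham (0.02 with TPM; -0.45 to 0.03 with a library left out), and in BDL+LIG against BDL for Abcb11 (0.15 with TPM, 0.01 with voom, -0.03 to 0.01 with a library left out) and Atp8b1 (-0.09 with median-of-ratios, -0.08 with quantile scaling, -0.04 with the length trend removed). Log2 ratios that turned with a library left out were Abcc3/Abcc2 in BDL+LIG against sham (-0.13 to 0.79), Abcc4/Abcc2 in BDL+LIG against BDL (-0.26 to 0.01) and Atp8b1/Abcb4 in BDL against sham (-0.14 to 0.08).

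Deviations from the group means correlated at -0.126 to 0.285 between same-numbered libraries and at -0.304 to 0.14 between differently numbered ones. In BDL+LIG against BDL the same-numbered values were 0.089, 0.013 and 0.112, and the highest of the others was 0.009. With 3 libraries per group these values cannot settle whether the numbers pair the libraries. A replicate block gave 2782 genes in BDL against sham, 742 in BDL+LIG against BDL and 5125 in BDL+LIG against sham, and 8, 1 and 7 exporters. Depth limits Abcc4 in sham (17 to 36 fragments), Abcb1a in sham (10 to 52) and Slc51b in sham (0 to 27).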
